A study of Homo sapiens with 6 samples.

Results

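GREB1 is one of the earliest and most strongly estrogen-induced genes of breast cancer cells, and its product binds ERα on chromatin and acts as a cofactor of the receptor. ERα occupancy around this gene was mapped by ChIP-seq, the sequencing of DNA recovered with an antibody to the receptor. The cells were MDA-MB-453, an established human breast cancer cell line that expresses the androgen receptor. The locus was taken as all entries of the 6 deposited peak lists whose summit, the position of highest signal, lay inside the GREB1 span or within 50 kb of it. The span is chromosome 2, 11482888 to 11642788 in GRCh38. The rule found 117 of 690548 list entries, which merged into 30 of 175206 distinct regions when entries that overlapped by at least 1 bp were joined.

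The cells of every group carried an inducible ERα and received 2 µg/mL doxycycline for 2 days, in medium with 10% fetal bovine serum whose hormone content is not given. The receptor was wild type (WT), Y537S or K303R. Y537S is known to make the receptor active when no hormone is bound, and K303R changes a residue at the border of its hinge region. Each receptor was studied without and with 1 nM estradiol (E2), with 1 library per combination. No difference below therefore has a replicate check, and all intervals cover counting error only. The labels do not say whether a line is 1 clone, no uninduced or input library was analysed here, and peak lists hold no RNA markers with which to check the cell type.

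Ligand-bound ERα pairs up on palindromic estrogen response elements, often far from the genes it controls, and recruits coactivators there. Estrogen-responsive genes commonly have several such enhancers, and GREB1 is a standard example in ERα-positive cells such as MCF-7.

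The gene shares its surroundings with E2F6, a repressive member of the E2F family, with the neurotensin receptor gene NTSR2, and with LPIN1, which encodes a phosphatidate phosphatase. NTSR2 and E2F6 lie wholly within the 50 kb flanks and LPIN1 lies there with its first 15245 bp. The microRNA gene MIR4429 and the pseudogenes RNA5SP84, TRG-CCC7-1, RNU2-13P, RNA5SP85 and RN7SL674P lie inside GREB1, CDK8P1 inside NTSR2 and the noncoding gene LOC100506405 inside LPIN1. Of these neighbours, E2F6 was the one with a member region over a promoter whose sequence was at hand. The 250 bases before its 5′ end are shown because their last 137 bases fall in a weak region listed in WT without E2 alone. They are on the minus strand at chromosome 2, 11466162 to 11466411, from RefSeq, build GRCh38.p14. Capitals mark the one motif found.

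E2F6: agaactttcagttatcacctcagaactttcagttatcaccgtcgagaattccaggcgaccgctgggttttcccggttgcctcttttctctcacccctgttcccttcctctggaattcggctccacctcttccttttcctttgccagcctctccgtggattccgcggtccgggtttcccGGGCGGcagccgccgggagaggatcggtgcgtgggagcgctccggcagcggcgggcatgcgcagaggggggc

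The motif is GGGCGG, the letters bound by SP1 and KLF factors, which 42.6% of 35116 promoter windows of this length held on either strand. The full estrogen response element (GGTCA, any 3 bases, then the reverse complement of GGTCA) had no match in the window and was found in 0.0399% of all promoters. A single GGTCA, present in 32.6%, also had no match. The same held for TGANTCA, the AP-1 motif (6.57% of promoters), for TGTTTAC, bound by forkhead factors (2.98%), and for AGATAA, which is bound by GATA factors (9.17%). These matches describe letters in a window of promoter sequence and not the sites bound at GREB1.

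Signal is given as fragments at the summit, a whole number solved from the fold and −log10 p-value that the authors' lists hold for each entry. The 6 lists held 106186 to 125850 regions with a median of 23 to 30 fragments, and their weakest entries had 5 or 6. Regions in all 6 lists with a mean of at least 50 fragments are called well covered, which applied to 33626 regions of the genome and 8 of the 30 at GREB1. Ratios between libraries were centred on the medians of the well-covered regions. A region was called higher or lower past 1.5-fold with an exact counting interval, at an error rate of 0.001, that excluded 1. Printed intervals are 95% intervals. Scaling each library by its lowest local background instead moved all ratios of a comparison together, by −0.44 to 0.39 on the log2 scale. The largest moves were in the comparisons that use K303R without E2. Peak names in the Y537S lists carry a date-like tag that differs from the one shared by the WT and K303R lists. Receptor, cell line and that tag cannot be told apart in any comparison with Y537S. Between K303R and WT, which share the tag, receptor and cell line cannot be told apart either.

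The strong ERα regions at GREB1, the well-covered ones, formed 1 cluster in the low-coordinate part of the gene. Their presence in every library follows from the definition of well covered. All 8 well-covered regions lay between 11494518 and 11551569, a stretch of 57.1 kb inside the span. They are named here by the distance of their summit from the low-coordinate end of the span as +12, +16, +33, +42, +48, +50, +57 and +68 kb. Starts of shorter transcripts within the span, exons and introns were not analysed here. The other 22 regions had 7 to 61 fragments. Of the 30 regions, 19 had their summit inside GREB1, 2 before it and 9 after it, and 13 were in all 6 lists (43.3%, against 38.7% of all merged regions).

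**Figure D1:**
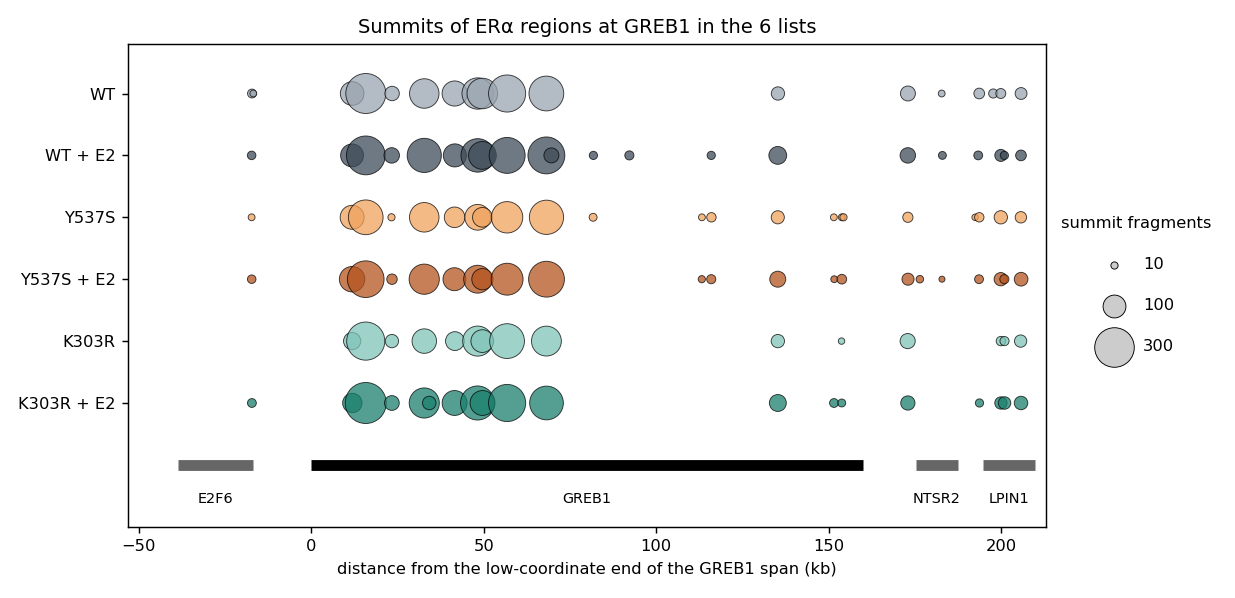
Summits at the GREB1 locus in each list, by distance in kb from the low-coordinate end of the gene span (x axis) and library (y axis), with circle area proportional to summit fragments and gene spans as bars below (LPIN1 continues to the right). The 8 large circles of every library lie within a 57.1 kb stretch of the gene, and the small circles are spread over the rest.

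Such a cluster was not unique, and how uncommon it was depended on the measure. Among 33626 stretches of 56297 bp that each began at the summit of a well-covered region, 962 (2.86%) held 8 or more well-covered summits, with a median of 2 and a maximum of 16. The length and the limit of 8 were taken from the GREB1 cluster itself. Stretches can overlap, so the 962 are starting points and not distinct clusters, and the share is a description. Among 19974 protein-coding genes taken with 50 kb on each side, 1847 others had as many well-covered regions as GREB1, where the median gene had 2. For the strongest region the corresponding number was 722 genes, with a median of 96.5 fragments against 281 at GREB1. Of 1112 genes of similar span, 181 had as many well-covered regions. Counting all regions, GREB1 with its flanks had 11.5 per 100 kb, against a median of 7.56. By that density 4810 genes were level with it or above.

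The position of each strong region hardly varied between libraries. The 6 summits of the +33 kb region lay within 17 bp of each other, those of the +57 kb region within 26 bp and those of the +16 kb region within 27 bp. The widest spread was 141 bp, at +42 kb. The +48 and +50 kb regions form a close pair, with 1377 bp between their summits, and were listed separately in every library.

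The +16 kb region (11498327 to 11499045) had the most fragments at the locus in all 6 libraries. It had 307 in WT, 289 in WT with E2, 231 in Y537S, 258 in Y537S with E2, 279 in K303R and 323 in K303R with E2. These unscaled counts span 1.40-fold from the lowest to the highest. The +57 kb region (11539343 to 11540220), which ends 385 bp before MIR4429, had 264, 248, 189, 195, 232 and 265 fragments in the same order. It resembled the +16 kb region in its spread (1.40-fold) and in having its 2 lowest counts in Y537S. The +68 kb region (11550745 to 11551569) had 232 and 261 fragments in WT, 225 and 246 in Y537S, and 171 and 218 in K303R. Before scaling, K303R without E2 was the lowest library here and the Y537S counts were near those of WT. The centred ratio of K303R to WT at +68 kb was 1.01 without E2 (0.824 to 1.24) and 0.947 with E2 (0.787 to 1.14). Scaled by the lowest background, the ratio without E2 was 0.747.

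The +48 kb region (11530865 to 11531482) had 188 fragments in WT, 215 in WT with E2, 127 and 149 in Y537S, and 173 and 223 in K303R. Its neighbour at +50 kb (11532256 to 11532765) had 179 and 148 in WT, 74 and 87 in Y537S, and 99 and 119 in K303R. Both WT libraries were thus above all 4 mutant libraries at +50 kb, and the unscaled range there, 2.42-fold, was the widest of the 8 regions. The +33 kb region (11515342 to 11516022) had 167 and 224 in WT, 167 and 175 in Y537S, and 115 and 174 in K303R.

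The 2 weakest members of the cluster varied in other ways. The +42 kb region (11524114 to 11524899) had 121 and 102 fragments in WT, 81 and 101 in Y537S, and 68 and 119 in K303R. The +12 kb region (11494518 to 11495082) had 107 and 100 in WT, 110 and 124 in Y537S, and 57 and 72 in K303R. At +12 kb the K303R libraries were the lowest before scaling, and no other strong region had its highest count in Y537S.

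**Figure D2:**
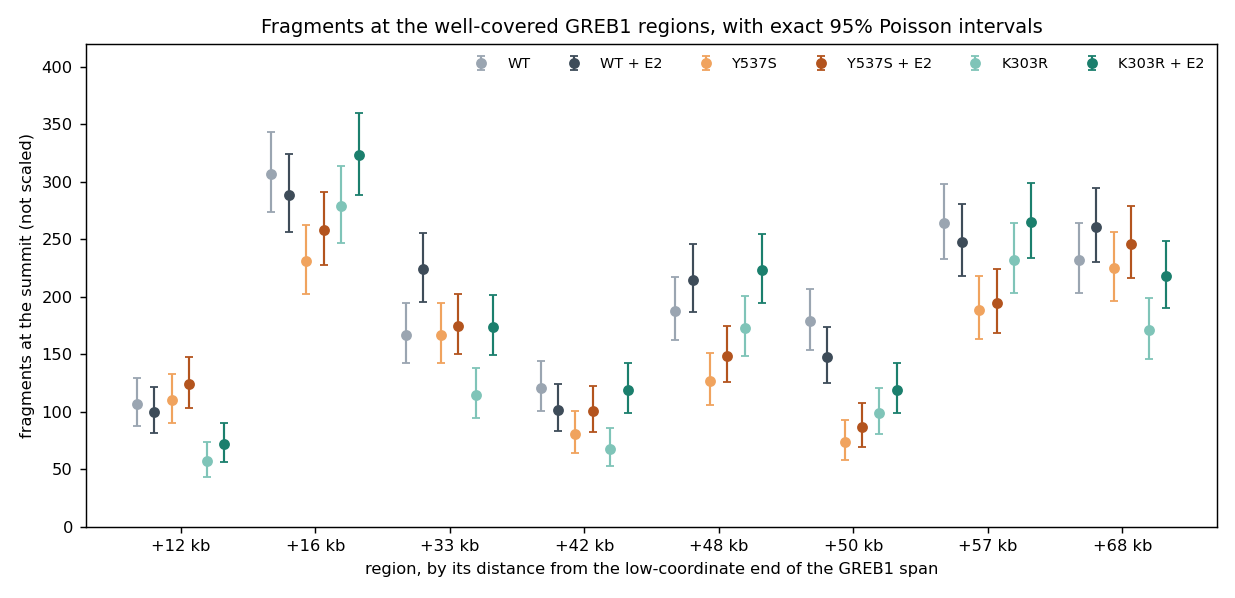
Fragments at the summit of the 8 well-covered GREB1 regions, unscaled, in the 6 libraries; points are counts and bars are exact 95% Poisson intervals. The +16 kb region is the highest in every library (231 to 323), and at +50 kb the WT libraries (179 and 148) stand above the 4 mutant libraries (74 to 119).

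Which region led the locus depended on the measure. By −log10 p the +16 kb region led in WT without E2 (255) and in K303R without (240) and with E2 (281). The +68 kb region led in WT with E2 (254) and in both Y537S libraries (220 and 249). By the authors' fold the +33 kb region led in 5 libraries (19.5 to 25.1), and the +68 kb region in Y537S with E2 (23.7), while the +16 kb region had a fold of 14.7 to 17.7. The local background solved for the +16 kb region was 12.9 to 15.4 times the lowest in the library, against a median of 4.35 to 6.03 times over all well-covered regions. The part of the closely spaced neighbours in this background was not tested. The best GREB1 entry ranked from 190 in K303R with E2 to 891 in Y537S without E2 within its list by −log10 p. Ranked by fold, the +16 kb region was much lower, from 6495 in K303R without E2 to 26772 in Y537S with E2.

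With the median centring, none of the 8 strong regions was called higher or lower with E2 in any line. Genome-wide, E2 gave higher calls at 1.55% and lower calls at 0.684% of well-covered regions in WT. In Y537S the shares were 0.0862% and 0.0833%, and in K303R 2.05% and 1.05%. At the +16 kb region the E2 ratio was 0.923 in WT (interval 0.783 to 1.09), 0.987 in Y537S (0.823 to 1.18) and 0.939 in K303R (0.798 to 1.11). These intervals include 1 and exclude a 1.5-fold change in either direction at this centring. Scaled by the lowest background, the K303R ratio was 1.23. The median over the 8 regions was 0.922 in WT, 0.992 in Y537S and 1.03 in K303R, where the median of all well-covered regions was 0.993, 0.993 and 0.978.

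Single regions stood somewhat apart. The +33 kb region had an E2 ratio of 1.31 in WT (1.07 to 1.62) and 1.23 in K303R (0.964 to 1.57), but 0.926 in Y537S (0.745 to 1.15). The +42 kb region had 1.42 in K303R (1.05 to 1.94), 0.826 in WT (0.629 to 1.08) and 1.1 in Y537S (0.815 to 1.5). The lowest E2 ratio of the cluster was 0.811 at +50 kb in WT (0.648 to 1.01). By the authors' fold the ratio at +33 kb was 1.05 in WT and 0.976 in K303R. The K303R ratios at +33 and +42 kb became 1.61 and 1.87 when scaled by the lowest background, and both were then called higher. Of 24 differences in the log2 E2 ratio between pairs of receptors at the strong regions, 2 had a 95% interval that excluded 0, with no adjustment for their number.

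**Figure D3:**
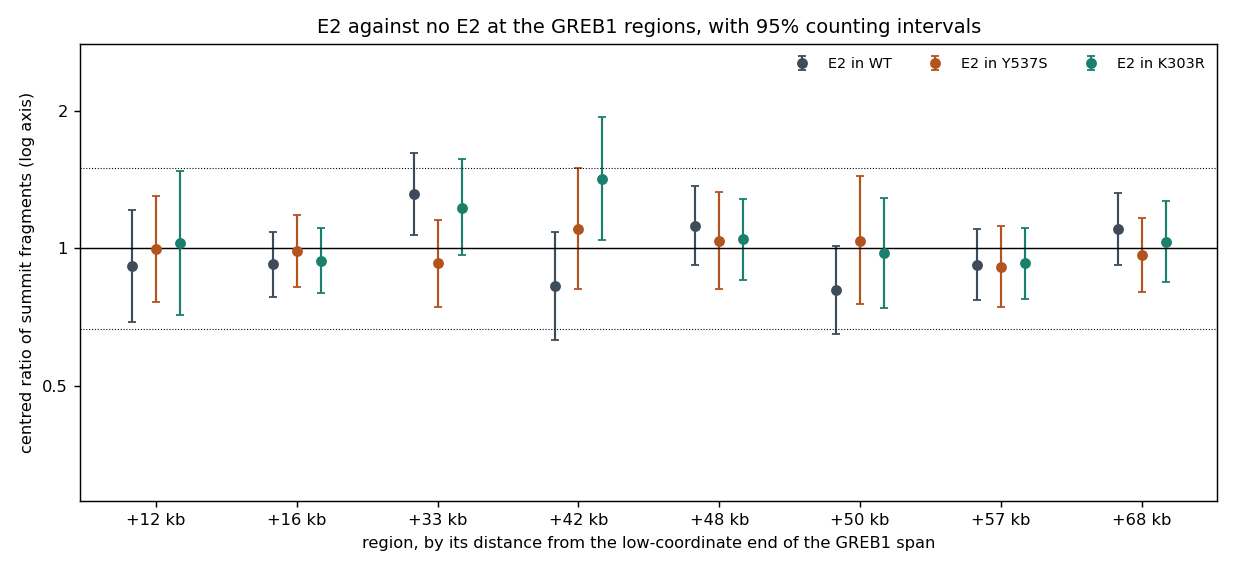
Centred ratio of summit fragments with E2 to without E2 (y axis, log scale) at the 8 well-covered GREB1 regions in each receptor line; bars are exact 95% counting intervals, and dotted lines mark 1.5-fold. The +16 kb ratios lie between 0.923 and 0.987, and the highest ratio is 1.42, at +42 kb in K303R.

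The centred ratio of Y537S to WT was below 1 at 6 of the 8 strong regions without E2 and at 7 with E2. It was lowest at +50 kb in both. Of all well-covered regions, 55.2% and 55.8% were below 1. The ratio by the authors' fold was above 1 without E2 at +12, +48 and +57 kb. With E2 the ratio by fold was above 1 at +12, +42 and +68 kb. At +50 kb the centred ratio was 0.418 without E2 (0.314 to 0.550) and 0.535 with E2 (0.406 to 0.702), called lower in both treatments. The +48 kb region was called lower with E2 at 0.631 (0.509 to 0.781) and had 0.682 without E2 (0.540 to 0.859). Its ratio with E2 was 0.716 and no longer called when scaled by the lowest background, while +50 kb was still called in both treatments. So 1 of 8 regions was called lower without E2 and 2 of 8 with E2, and none higher. The genome-wide shares were 9.15% lower and 8.05% higher without E2, and 8.59% lower and 6.06% higher with E2. With so few regions these counts do not set the locus apart from that background.

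The ratios were uneven along the cluster. The +16 kb ratio was 0.760 without E2 (0.638 to 0.904) and 0.813 with E2 (0.685 to 0.965), and the +57 kb ratio was 0.723 (0.597 to 0.875) and 0.716 (0.591 to 0.867). By the authors' fold the +57 kb ratio without E2 was 1.04. The +42 kb region had 0.676 (0.504 to 0.903) and 0.902 (0.678 to 1.2). By the authors' fold these +42 kb ratios were 0.916 and 1.11, and with E2 the lowest background gave 1.02. In the same comparisons the +33 kb region had 1.01 (0.810 to 1.26; 0.955 by the authors' fold) and 0.711 (0.580 to 0.871). The +68 kb region had 0.980 (0.812 to 1.18) and 0.858 (0.718 to 1.03), with 1.19 without E2 when scaled by the lowest background and 1.05 with E2 by the authors' fold. The +12 kb region had 1.04 (0.788 to 1.37) and 1.13 (0.861 to 1.48). The median of the 8 centred ratios was 0.742 without and 0.765 with E2, against 0.959 and 0.958 over all well-covered regions. The 8 ratios by the authors' fold ran from 0.693 to 1.21 without E2 and from 0.814 to 1.22 with E2. Among them, the +16 kb ratios were 0.899 and 0.898, and with E2 +33 kb had 0.861 and +57 kb 0.927. How far the 8 stood below 1 as a set thus depended on the measure. Scaled by the lowest background the +16 kb ratio without E2 was 0.922.

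The authors' fold gave a different picture at the close pair, because it divides by a local background that was itself lower in Y537S. At +50 kb that background was 13.2 fragments in WT and 7.04 in Y537S without E2, and at +48 kb it was 13.2 and 7.02. No control is given, and the part of the pair's own signal in this background was not tested. At +50 kb the ratio of folds was 0.693 without and 0.814 with E2. At +48 kb the ratio of folds was 1.13 without and 0.959 with E2, so the direction without E2 depended on the measure. Within a library, shares do not depend on scaling, but they come from the same counts that made +50 kb the lowest ratio and are given as a description. The region held 11.4% of the fragments of the 8 strong summits in WT (exact binomial interval 9.90 to 13.1) and 6.15% in Y537S (4.86 to 7.65). With E2 the shares were 9.33% (7.94 to 10.9) and 6.52% (5.25 to 7.98).

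With the median centring, K303R had no region of the cluster called higher or lower in either treatment. The lowest-background scaling gave lower calls without E2 at +12, +42 and +50 kb, with ratios of 0.540, 0.569 and 0.560. The genome-wide shares were 5.49% higher and 5.86% lower without E2, and 6.33% higher and 7.89% lower with E2. The +16 kb ratio to WT was 1.24 without E2 (1.05 to 1.47) and 1.27 with E2 (1.08 to 1.49). At +57 kb it was 1.2 (1.00 to 1.44) and 1.21 (1.01 to 1.45). Scaled by the lowest background, the ratios without E2 were 0.921 and 0.890, so without E2 neither direction holds under both scalings. At +50 kb the ratio was 0.758 without E2 (0.587 to 0.974) and 0.911 with E2 (0.710 to 1.17). At +42 kb it was 0.770 (0.563 to 1.04) and 1.32 (1.01 to 1.74), on either side of 1. The median of the 8 was 0.976 without and 1.06 with E2, against 1.03 in both over all well-covered regions.

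The make-up of the cluster in K303R can be read without scaling. The +12 kb region held 4.77% of the strong summit fragments in K303R (3.64 to 6.14) and 4.76% with E2 (3.74 to 5.96). In WT it held 6.84% (5.64 to 8.20) and 6.30% (5.16 to 7.61), and in Y537S 9.14% (7.57 to 10.9) and 9.29% (7.78 to 11). The intervals of Y537S and K303R at this region did not overlap. This was not particular to +12 kb. Within each treatment they also did not overlap at +48 kb, where K303R was higher, and at +68 kb, where it was lower. Without E2 the same held at +33 kb, where K303R was lower. The +16 kb share was 23.4% in K303R (21.0 to 25.9) and 21.3% with E2 (19.3 to 23.5), and 18.2% to 19.6% in the other 4 libraries. The intervals of those 4 ran from 16.3 at the lowest to 21.7 at the highest. Within each treatment the K303R interval overlapped those of WT and Y537S. By fragments the +57 kb region ranked second in both K303R libraries and in WT without E2, and the +68 kb region ranked second in the others.

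**Figure D4:**
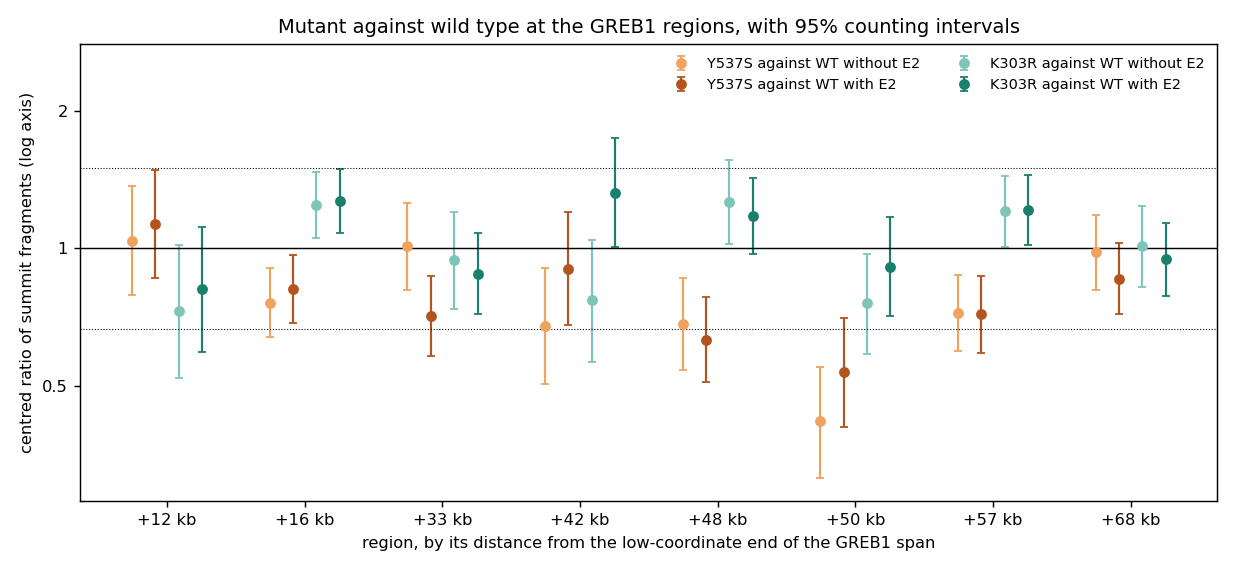
Centred ratio of summit fragments in each mutant line to WT in the same treatment (y axis, log scale) at the 8 well-covered GREB1 regions; bars are exact 95% counting intervals, and dotted lines mark 1.5-fold. Y537S is lowest at +50 kb (0.418 and 0.535), and the K303R ratios lie between 0.730 and 1.32.

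Summed over the 13 regions present in all 6 lists, WT gave 1728 unscaled fragments and 1790 with E2, Y537S 1326 and 1503, and K303R 1352 and 1713. Centred on WT without E2, the sums were 1755 in WT with E2 (1674 to 1838), 1339 (1268 to 1413) and 1342 (1275 to 1412) in Y537S, and 1852 (1755 to 1953) and 1903 (1814 to 1996) in K303R. The intervals of Y537S lay below that of WT without E2 (1647 to 1811). Scaled by the lowest background the Y537S sums were 1624 and 1626 and that of K303R without E2 was 1370.

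Outside the strong cluster, 5 regions were weak but present in every list. The one at +135 kb (11617822 to 11618808), the only such region in the higher-coordinate part of GREB1, had 34 and 61 fragments in WT, 33 and 49 in Y537S, and 34 and 55 in K303R. Its count was higher with E2 in each line, with centred ratios of 1.76 in WT (1.14 to 2.76), 1.31 in Y537S (0.827 to 2.11) and 1.31 in K303R (0.840 to 2.08). Its mean of 44.3 fragments is below the minimum for a call, and 2 of these 3 intervals include 1. The local background solved at +135 kb was also higher with E2 in each line, with 1.48 and 2.71 in WT. By the authors' fold the change was smaller, from 14.1 to 16.7 in WT, 12.6 to 13.5 in Y537S and 13.7 to 16.0 in K303R.

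The +23 kb region (11505998 to 11506663), inside the strong stretch, had 40 and 46 fragments in WT, 10 and 21 in Y537S, and 34 and 42 in K303R. Both Y537S counts were the lowest, with ratios to WT of 0.253 without E2 (0.113 to 0.514) and 0.416 with E2 (0.236 to 0.711). The region at +173 kb (11655525 to 11656140), with its summit 2381 bp from the NTSR2 span, also had its lowest counts in Y537S, with 43 and 46 fragments in WT, 20 and 28 in Y537S, and 44 and 39 in K303R. With a mean of 32.2 and 36.7 fragments, these 2 regions were also below the minimum for a call. The remaining 2 lay in LPIN1. That at +200 kb, which also overlaps LOC100506405, (11682537 to 11683011) had 17 to 34 fragments with its highest counts, 34 and 34, in Y537S, and that at +206 kb (11688295 to 11688872) had 22 to 36.

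The other 17 regions were in 1 to 5 lists, with 7 to 43 fragments where listed. A region that a list lacks did not pass the authors' threshold there, which does not show that the receptor was absent. At +116 kb in GREB1 (11598727 to 11599043) there were 17 and 16 fragments in Y537S and 13 in WT with E2. The region was in neither K303R list and not in WT without E2. The region at +113 kb was in both Y537S lists alone, with 9 and 10 fragments. The region of the +154 kb position with its summit at 11636673 was in all 4 mutant lists (8 to 18 fragments) and in no WT list.

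At E2F6, a region 423 bp inside the 5′ end had 9 to 15 fragments in 5 lists and was absent from that of K303R without E2. The weak region over the sequence shown above had its summit 11 bp inside that end and 9 fragments in WT without E2. A region 1054 bp before the LPIN1 span had 13 to 22 fragments and was absent from the same K303R list. The region at +201 kb, inside LPIN1, had 13 fragments in WT with E2, 16 in Y537S with E2, and 16 and 30 in K303R. The 2 strongest regions found in 1 list lay beside strong ones, with 43 fragments at +70 kb in WT with E2 and 35 at +34 kb in K303R with E2. In all, 7 of the 30 regions were in no WT list (23.3%, against 19.4% of all merged regions). The number in no Y537S list was 5 (16.7% against 26.2%), and the number in no K303R list was 11 (36.7% against 29.4%). K303R without E2 had the fewest listed regions at the locus, 15, against 18 to 22 in the other libraries, and its list was also the shortest of the 6 genome-wide.

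**Figure D5:**
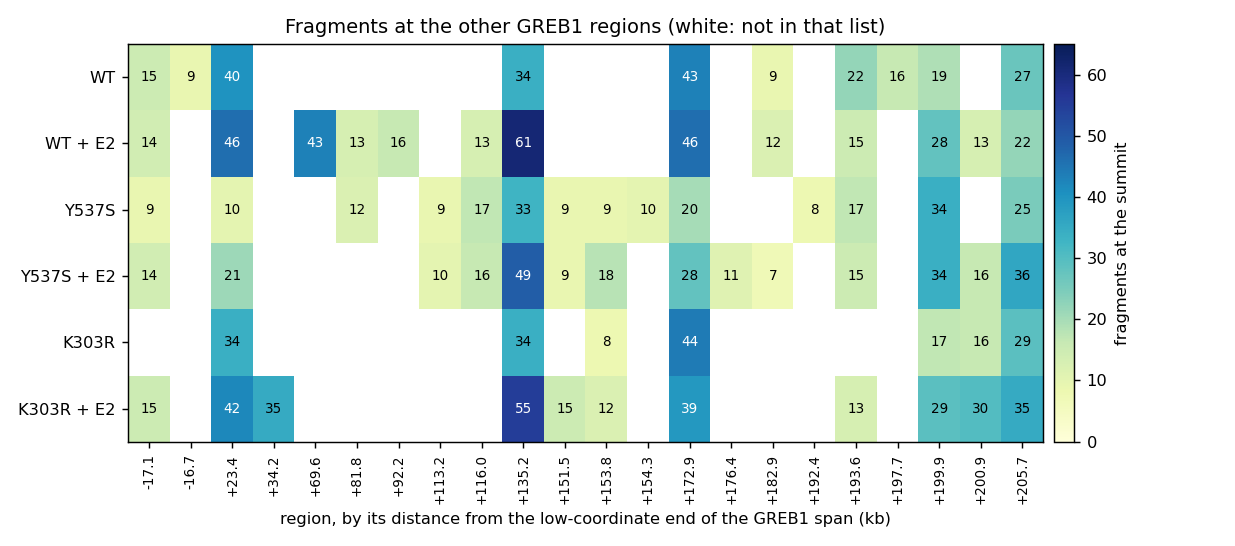
Fragments at the 22 GREB1 regions that were not well covered, by distance in kb from the low-coordinate end of the gene span (x axis) and library (y axis); white marks a region that the list does not hold. The +135 kb column is higher with E2 in each line (61, 49 and 55 against 34, 33 and 34), and +23 kb is lowest in the Y537S libraries (10 and 21).

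The strongest region of each of 20 other well-known estrogen response genes was compared next. It was the region with the most fragments within 50 kb of its span. All 20 were well covered, with a mean of 150 to 325 fragments, against a median of 95 over all well-covered regions. The genome-wide shares given here are thus not from regions of like strength. None of the 20 was called with E2 in any line, against shares of 0.0862% to 2.05% higher and 0.0833% to 1.05% lower genome-wide. Their E2 ratios had a median of 0.980 in WT (0.873 to 1.13), 0.981 in Y537S (0.846 to 1.11) and 0.919 in K303R (0.793 to 1.12). In Y537S against WT, 9.15% of all well-covered regions were called lower and 8.05% higher without E2, and 8.59% and 6.06% with E2. Of the 20, 3 were called lower without E2 and 2 with E2, and none higher. Their medians were 0.789 and 0.794, against 0.959 and 0.958 over all well-covered regions. Those called were CTSD, which encodes the protease cathepsin D (0.569 without E2), the trefoil peptide gene TFF1 (0.624 without E2), the growth factor-binding protein gene IGFBP4 (0.652 and 0.619) and the retinoic acid receptor gene RARA (0.656 with E2). None of these calls remained when scaled by the lowest background, with CTSD at 0.690, TFF1 at 0.757, IGFBP4 at 0.791 and 0.702, and RARA at 0.745. In K303R against WT without E2, IGFBP4 (1.78) and RARA (1.59) were called higher, and with E2 none was called. Both calls were lost when scaled by the lowest background, at 1.32 and 1.17. By mean fragments 4 of the 20 exceeded the 281 of GREB1.

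The genes with the profile most like that of the +16 kb region, by root mean square difference of centred log2 fragments over the 6 libraries, were PXDC1 (0.0164), ASB13 (0.0242) and PDLIM3 (0.0266). Over the 15599 regions that averaged 100 fragments or more, the median was 0.281. The 3 genes were picked as the nearest, and their regions had 187 to 267 fragments per library. The part of counting error in which genes came out nearest was not tested. A like profile does not show shared regulation. Within GREB1 the +57 kb region was at 0.0620 and the +48 kb region at 0.148, while +68, +33 and +50 kb were at 0.255, 0.310 and 0.324. Of these 5, the +57 kb region was closer than all but 1.3% of the 15599 regions, and +50 kb was farther than 60.2% of them.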

How the data were processed

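ERα ChIP-seq libraries, 1 per receptor and treatment, were analysed from the authors' deposited peak lists on hg38. Per the submitters' processing notes, Bowtie2, SAMtools, Picard, bedtools and MACS2 were used. No version, control or threshold is given in the sources used here. The deposited lists (narrowPeak layout) give a fold ratio over local background, −log10 p and −log10 q values, and a score that the authors deposited as 10 times the −log10 q in 99.6% or more of each list (not used). Chromosomes 1 to 22 and X were kept. Summit fragments were solved from fold and p (Poisson upper tail, pseudocount 1). The solution matched the deposited p to within 0.01% in 100% of the entries of each list and was tested on simulated peaks. Total depth is unknown. Ratios used the library medians over the well-covered regions. Intervals are exact (conditional binomial, Poisson or Clopper-Pearson), except that differences of log2 ratios used the summed reciprocals of the counts. PCR copies are not told apart.

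Gene spans came from RefSeq GRCh38.p14. The locus, the gene list and the thresholds were chosen with earlier results of these data known. Regions named one by one are the well-covered ones, and of the others those in all lists and the 3 of widest range. Genes of like pattern are the 3 nearest to the strongest region, and of the estrogen response genes those called were named. Other weak regions and neighbours named in the text were chosen after their values were seen. Python 3.11.15, numpy 2.4.6, scipy 1.17.1, pandas 2.3.3 and matplotlib 3.10.9 were used. The planned search of motifs in the GREB1 regions was not run here, and 1 promoter window was searched instead. The alternatives are in the closing section, with 1 centring and the scaling of the estrogen response genes added after seeing the data.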

Additional observations from a re-analysis of the deposited data

Results flagged for a closer look

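Among the 24 differences in E2 response between receptors at the strong GREB1 regions, 2 were larger than counting error at 95%. At +33 kb the log2 E2 ratio of Y537S was lower than that of WT by a difference of −0.51 (−0.93 to −0.08). At +42 kb that of K303R was higher than that of WT by 0.78 (0.21 to 1.35). Neither difference was checked in a replicate, and the intervals are not adjusted for the number of differences examined. The Y537S libraries also carry another tag than those of WT, and its part in the difference was not tested.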

How the results depend on the processing

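No paired test within a receptor was possible, because there was 1 library per receptor and treatment. A fit of E2 over the 3 lines as blocks, which takes the response to be the same in each receptor, was not run. No called ratio changed direction under any alternative. The number of listed regions depended on the window. Within 100 kb of the span it was 29 in WT and 23 in K303R without E2, and inside the span alone 10 in WT without E2, 14 in Y537S with E2 and 19 of the merged 30. With the other windows and thresholds, and with summits within 200 bp joined, counts stayed within 1.5 times. At the +16 kb region, scaling by the lowest background gave 1.23 for E2 in K303R, 0.922 for Y537S and 0.921 for K303R against WT without E2, each outside the interval of the centred ratio. For these ratios, centring on chromosome 2, within 2.5 Mb, or on the median of region ratios, and the authors' fold, stayed inside that interval. Scaled by the lowest background, 2 strong regions were called higher with E2 in K303R, 3 lower in K303R against WT without E2, and 1 lower in Y537S against WT with E2, where the +48 kb call was lost. With the same scaling, added for them after seeing the data, the estrogen response genes called lower in Y537S numbered 0 in both treatments, with 1 called higher in each. In K303R without E2, 0 were called higher and 1 lower. When the minimum mean was 20 fragments, 2 of 13 regions were called lower in Y537S without E2. At 2-fold, 0 were called lower in Y537S with E2. Changes seen with the lowest background come from 1 common factor per comparison. Which scaling is closer to the true levels was not tested. Regions under 50 fragments on average have wide intervals, and were called in the alternative with the lower minimum alone.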
